A study of Glycine max with 23 samples.

Results

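Transcript levels of the whole young soybean seed were compared with those of the young leaf, using the 4 of 23 arrays that came from ground tissue. Both organs were taken from Glycine max cv. Asgrow A3237 raised at 22 °C under days of 16 h and nights of 8 h, and the labels name no treatment or transgene for any group. The whole seed group (2 arrays) held seeds with embryos at the heart stage from pods of 1.3 to 2.0 cm, and the leaf group (2 arrays) held trifoliate leaves of 1.5 to 2.5 cm. Both were frozen, ground and extracted with the same reagent. The other 19 arrays came from 8 compartments cut by laser from sections of such seeds: embryo proper, suspensor and endosperm with 3 arrays each, and 5 seed coat regions with 2 arrays each, which were the hilum, the epidermis, the outer and inner integuments and the endothelium. The captured samples were fixed and embedded in paraffin and were extracted with another reagent, so levels between captured and ground samples are set side by side without a test. All 23 arrays were Affymetrix Soybean Genome Arrays, which measure each transcript with 1 or more probe sets, and 37593 soybean probe sets were read. The labels call the replicates biological and tie none to single plants, so a p-value here reflects no more than how far these samples scatter.

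A legume seed at the heart stage is built of tissues of different origin: an embryo whose cotyledons are only emerging, a suspensor that joins it to the mother, an endosperm, and a maternal coat that forms much of the young seed. The coat unloads sugar from the phloem, holds starch for a time, and in its outer and hilar layers makes flavonoids, among them the tannin-like proanthocyanidins. A young leaf is an expanding photosynthetic organ, and in soybean it also accumulates vegetative storage proteins and lipoxygenases. In ground tissue, fewer cells of a type and less transcript per cell cannot be told apart.

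Whole seed and leaf differed at 3385 of 25686 tested probe sets (13.2%), of which 1322 (5.15%) were higher in whole seed and 2063 (8.03%) were higher in leaf. A probe set was called where limma's moderated test passed an adjusted p of 0.05 and the estimated difference reached 2-fold. Over everything tested, the median log2 difference was 0.12 toward whole seed. Differences of at least 4-fold were called for 797 probe sets toward seed and 1721 toward leaf. Of the seed-high probe sets 289 were below background on both leaf arrays, and of the leaf-high ones 643 were below background on both seed arrays. The 2 seed arrays correlated at 0.96 and the 2 leaf arrays at 0.961 over the log2 signals, against 0.844 to 0.866 between the organs. The fit took its spread from all 10 groups. With only the 4 ground arrays 6778 probe sets were called. Leaving out whole seed replicate 1, whole seed replicate 2, leaf replicate 1 or leaf replicate 2 gave 2064, 1674, 1982 and 1830 calls, the lone remaining array being assumed to vary like the other groups.

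**Figure D1:**
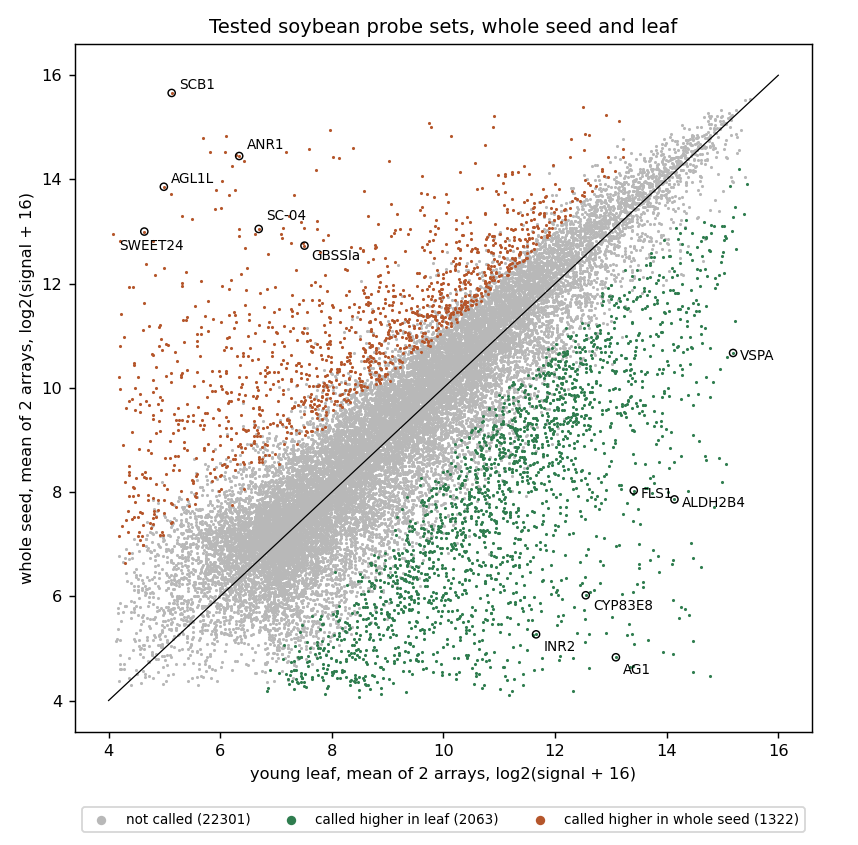
Mean log2(signal + 16) of the 2 whole seed arrays against that of the 2 leaf arrays, 1 point per tested probe set. The 1322 probe sets called higher in whole seed lie above the line of equal signal and the 2063 called higher in leaf lie below it. Circles mark genes given by name.

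Signals were strictly apart between the organs, with no overlap of the 2 seed and the 2 leaf arrays, for 68.0% of tested probe sets, and for every called one. Of 851 genes with a symbol 85 (9.99%) were called higher in seed and 104 (12.2%) higher in leaf, each gene being read from its brightest probe set. Those percentages are the background for the gene groups below. Where a gene was below background on both arrays of the dimmer organ, its fold is written as "at least", measured against the background of those arrays, and the log2 estimate beside it comes from the measured signals.

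The widest difference toward seed belonged to SCB1, a BURP-domain protein of the seed coat. Its signal was 50899 and 52570 in the whole seed arrays and 18.7 and 19.2 in the leaf arrays. Seed was thus at least 490-fold higher (log2 difference 10.53 ± 0.69, adjusted p = 2.6e-09, limma). Both leaf values lay below background. Among the captured compartments SCB1 was brightest in the inner integument, at 136887 ± 35526 (SD, n = 2), with the outer integument next at 102962 ± 4867 (n = 2). It was above background in all 8 compartments, and lowest in the hilum, at 927 ± 112 (n = 2).

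Genes of sugar transport and of sucrose and starch metabolism were called higher in seed in 5 of 18 tested cases and higher in leaf in 1, with a median log2 difference of 0.13. SWEET24, of the family of sugar efflux carriers, gave 9599 and 7001 in seed against 11 and 7.1 in leaf, at least 77.7-fold (log2 8.36 ± 0.86, adjusted p = 1e-06). Its signal was below background in leaf and was richest in the inner integument, at 62070 ± 16171 (n = 2), 2.37-fold above the outer integument. SWEET13 read 1239 and 798 in seed against 31.0 and 74.8 in leaf and was also richest in the inner integument. There its mean of 5776 was 4.07 times that of the endothelium on the log scale used, although the lead did not pass the test against each of the other 7 compartments. The hexose carrier family member STP1 read 10636 and 9183 in seed and 1210 and 1517 in leaf. It too was richest in the inner integument, 1.78-fold above the endothelium and without a clear lead. Its means in the suspensor (8335) and endosperm (7686) exceeded that in the outer integument (838).

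Starch and sucrose enzymes had another distribution. GBSSIa, the granule-bound starch synthase that makes amylose, read 6600 and 6973 in seed and 121 and 228 in leaf (37.2-fold, adjusted p = 1.3e-08). Its compartment means were 15858 for the outer integument, 14736 for the suspensor and 12323 for the embryo proper, and none of them had a clear lead. A second GBSSIa probe set had a log2 difference of 1.94 and was not called (adjusted p = 0.29). SS, a sucrose synthase, read 19824 and 16626 in seed against 2384 and 2374 in leaf, 7.59-fold (adjusted p = 2.5e-06), and was above background in all 8 compartments. The 1 sugar gene higher in leaf, STP, read 659 and 813 there against 63.1 and 85.3 in seed. The list had 5 or 6 seed-high calls under each of the 10 alternatives tried for it.

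The late flavonoid genes separated the organs in both directions. Of 15 tested genes of flavonoid and proanthocyanidin synthesis 5 were called higher in seed and 3 higher in leaf (median log2 0.35). The seed-high members, ANR1, DFR1, ANS2, DFR2 and LAR1, encode dihydroflavonol reductases, anthocyanidin synthase and the anthocyanidin and leucoanthocyanidin reductases, which lead to anthocyanins and proanthocyanidins.

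ANR1 read 21104 and 23551 in seed and 74.9 and 56.2 in leaf, at least 211-fold higher in seed (log2 8.11 ± 0.98, adjusted p = 7.4e-06). DFR1 read 14943 and 13331 against 54.8 and 67.7, at least 134-fold (log2 7.52 ± 0.86, adjusted p = 3.6e-06). ANS2 read 17181 and 19926 against 212 and 179, an 87.9-fold difference (log2 6.46 ± 0.74, adjusted p = 3.5e-06). In each case the lower seed array stood far above the higher leaf array, and only ANS2 was above background in leaf. Among captured tissues the means of these 3 genes were highest in the epidermis and the hilum, and the endothelium came next with widely differing arrays, at 997 and 10498 for ANS2, 517 and 6692 for ANR1 and 568 and 2309 for DFR1. ANR1 was richest in the hilum, at 16146 ± 4662 (n = 2), and DFR1 in the epidermis, at 22473 ± 1408 (n = 2). ANS2 was richest in the epidermis, at 33520 ± 1517, with the hilum at 25297 ± 3117 (n = 2 each). In the embryo proper, suspensor and endosperm the highest mean of the 3 genes was 1233, for ANR1 in the suspensor. DFR2 and LAR1 were dimmer, with seed signals of 718 and 723 for DFR2 and of 170 and 154 for LAR1, and both were richest in the hilum.

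FLS1, the flavonol synthase that draws on the same precursor pool, went the other way. It read 251 and 241 in seed against 12723 and 9242 in leaf, 41.5-fold higher in leaf (log2 -5.37 ± 0.74, adjusted p = 3.1e-05), and a second FLS1 probe set was called in the same direction at -2.23. The glycosyltransferase gene UGT78K1 (log2 -4.13) and the chalcone isomerase gene CHI1B1 (log2 -2.42) were also higher in leaf. The early genes CHS1, CHS8 and F3H had log2 differences of 0.35, 1.79 and 0.20 and were not called. In the isoflavonoid branch IFR1, an isoflavone reductase, read 3864 and 3749 in seed and 56.3 and 53.8 in leaf, at least 36.2-fold higher in seed. IFS1, the isoflavone synthase, was 23.3-fold higher in leaf (adjusted p = 0.00024), and CHR5, a chalcone reductase, was at least 2.03-fold higher in leaf, with an adjusted p of 0.051 without leaf replicate 1.

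MADS-box regulators were called higher in seed in 4 of 6 tested cases and in none higher in leaf, with a median log2 difference of 3.60. AGL1L read 14763 and 14990 in seed against 2.1 and 40 in leaf, at least 141-fold (log2 8.87 ± 0.80, adjusted p = 1.9e-07). MADS28 read 7440 and 6965 against 0.8 and 29.6, at least 68.3-fold. SEP1, of the SEPALLATA class of floral regulators, read 1063 and 1307 against 66.7 and 32.7, at least 11.3-fold. All 3 were below background in leaf. AGL1L, MADS28 and SEP1 were bright in several coat regions at once, with no clear lead. NMH7 differed from them: its 1337 and 1367 in seed against 143 and 175 in leaf came with a clear lead of the hilum, at 18945 ± 3536 (n = 2), 27.0-fold above the endothelium. The NMH7 call was lost when any of the 4 ground arrays was left out. Its log2 difference ranged from 2.67 to 3.1 over the 10 alternatives. The other 2 tested members, AGL3L and AP1A, had log2 differences of 0.91 and -2.33 and were not called.

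AGL1L, MADS28, ANR1 and SEP1 also served as seed coat markers. All 4 were above background on both whole seed arrays and none on a leaf array, with summed signals of 44369 to 46812 in seed and 144 to 158 in leaf. The sum was 254 to 297 in the embryo proper, 424 to 911 in the endosperm and 1396 to 5770 in the suspensor. Among coat regions it was lowest in the endothelium, at 18913 to 26343, and highest in the hilum, at 46754 to 48263. On every array of the suspensor 1 of the 4 was above background, and 3 were so in the inner and in the outer integument. NMH7 and AP1A, the 2 tested markers of flower and pod wall, summed to 1409 to 1412 in seed and to 412 to 625 in leaf. They went opposite ways. The seed sum was nearly all NMH7, at 1337 and 1367, while AP1A was below background there, at 74.1 and 42.2. In leaf AP1A read 268 and 450. The sum was 16574 to 21531 in the captured hilum, so it does not measure flower or pod wall tissue. The part of such tissue in the seed samples was not tested.

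The large regulator families were called toward seed at shares near the 9.99% of all genes with a symbol. Of 37 WRKY genes 4 (10.8%) were higher in seed and 0 in leaf (median log2 0.02), and of 49 bZIP genes 6 (12.2%) were higher in seed and 0 in leaf (median 0.39). For 49 MYB genes the counts were 4 (8.16%) toward seed and 6 (12.2%) toward leaf (median -0.04). Across the alternatives the seed-high count ranged from 1 to 13 for bZIP, from 2 to 5 for WRKY and from 2 to 10 for MYB genes, and with other settings up to 4 WRKY and up to 2 bZIP genes were called higher in leaf.

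WRKY29 read 1070 and 1193 in seed and 15.0 and 8.7 in leaf, at least 10.8-fold higher in seed, and was richest in the hilum and epidermis. BZIP125 read 2645 and 3229 in seed against 116 and 164 in leaf (19.1-fold, adjusted p = 0.00083). It was led by the outer integument, at 4779 ± 476 (n = 2), 6.25-fold above the inner integument. BZIP124 shared that lead but was called at an adjusted p of 0.035 only, and lost the call without any 1 of the 4 ground arrays. MYB127 was the MYB gene with the widest difference toward leaf, at 3565 and 2168 against 30.6 and 70.3 in seed, at least 24.6-fold. PHANa, a relative of the PHANTASTICA regulators of leaf polarity, read 4017 and 3672 in leaf against 1391 and 1367 in seed (2.76-fold, adjusted p = 0.02). Within the seed PHANa had a clear lead of the embryo proper, at 9809 ± 892 (n = 3), 4.48-fold above the endosperm.

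Further genes with wide seed differences came from several functions. SC-04 read 9089 and 7862 in seed against 65.3 and 115 in leaf (82.1-fold, adjusted p = 1.5e-07). It had a clear lead in the suspensor, with 31012 ± 357 (n = 3) in the embryo proper as the second level. SSTP-1 read 7825 and 5560 against 40.7 and 118 (75.9-fold, adjusted p = 0.00027), while a second probe set of that gene had a log2 difference of -0.58 and was not called. The aquaporin N-26 (nodulin 26) read 2699 and 2549 against 42.8 and 31.3, at least 25.0-fold. PRP1, a proline-rich cell wall protein, read 9648 and 7642 against 142 and 194 (47.2-fold, adjusted p = 0.0004) and was richest in the epidermis. Its probe set may bind several related transcripts.

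Hormone and nitrogen genes were also among the seed-high calls. CKX3, a cytokinin oxidase, which degrades cytokinins, read 12286 and 11394 in seed against 285 and 929 in leaf (log2 4.47, adjusted p = 0.00024), with 16787 in the outer integument and 3944 in the hilum. GS1-GAMMA, a cytosolic glutamine synthetase, read 3834 and 3185 in seed against 76.6 and 249 in leaf, with 38303 in the inner integument and 9079 in the endothelium. Neither lead passed the test against every other compartment. AUX22, an auxin-inducible gene, read 7163 and 7424 in seed against 1077 and 721 in leaf and was bright in the inner integument (31968) and the endothelium (27909). Its call was lost in 3 of the 4 fits that left out a ground array, those without whole seed replicate 1, whole seed replicate 2 and leaf replicate 2 (adjusted p up to 0.095).

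AOC3 and AOC4, allene oxide cyclases of jasmonate synthesis, were called at log2 2.18 and 3.53 and were richest in the outer integument. Their probe sets come from 1 transcript cluster, so the 2 genes may share signal. The GASA peptides were split, with 3 of 15 higher in seed (GASA9, GASA22 and GASA33) and 3 higher in leaf (GASA11, GASA14 and GASA32). The probe sets of GASA14 and GASA32 also come from 1 transcript cluster, so these 2 genes may share signal. GASA22 lost its call without any 1 of the 4 ground arrays (adjusted p up to 0.21) and GASA33 without leaf replicate 2 (adjusted p = 0.056). Over the alternatives 1 to 3 GASA genes were called toward seed and 1 to 5 toward leaf. ACS1 stood out for its spread: whole seed replicate 1 gave 258 and replicate 2 gave 3533, against 28.7 and 215 in leaf. Its adjusted p of 0.039 became as high as 0.63 over the alternatives and the call was lost in 5 of 10: without whole seed replicate 2, without leaf replicate 1, with an offset of 1, with no filter on dim probe sets and with only the 4 ground arrays. A second ACS1 probe set was not called (log2 2.60, adjusted p = 0.062).

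**Figure D2:**
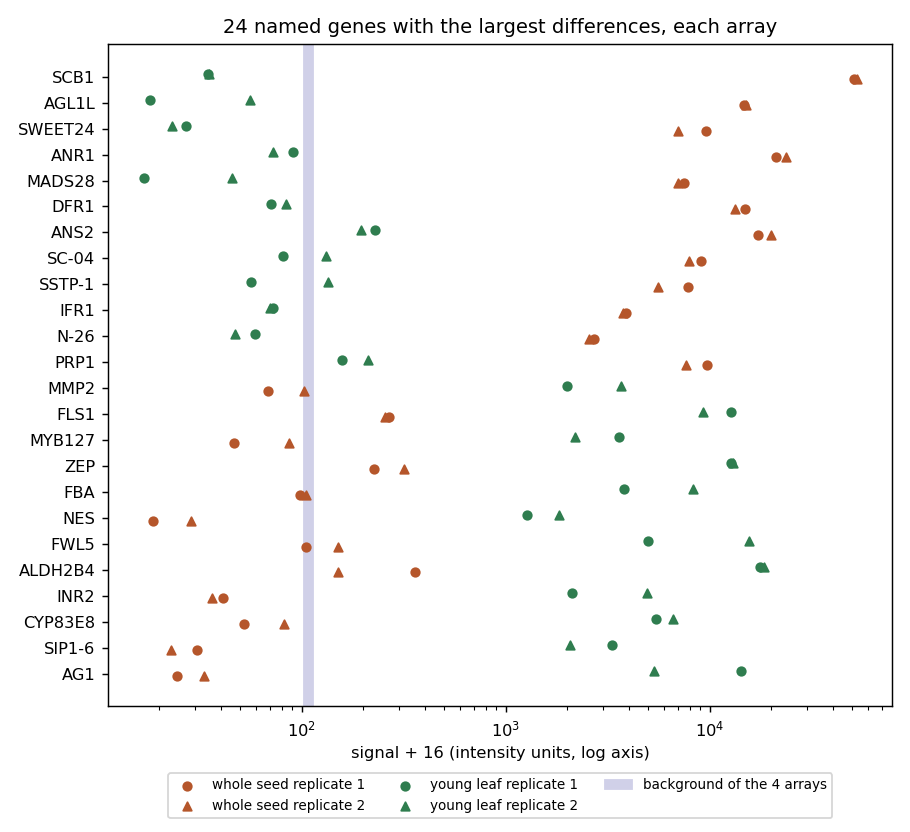
Signal + 16 on a log axis for each whole seed and leaf array, for the 12 named genes with the largest fold in each direction; the band spans the background of the 4 arrays. Seed and leaf points lie far apart in every row, and most of the lower points fall in or below the band.

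LEC1-A and WRI1B were weak in the ground seed. This did not hold for every gene bright in the embryo proper. GASA14, with a clear lead there, read 6935 and 8021 in whole seed. LEC1-A, a regulator of embryo development, read 250 and 280 in seed and 34.2 and 4.5 in leaf, at least 2.66-fold (log2 3.13 ± 0.69, adjusted p = 0.0033). In captured tissue LEC1-A reached 11475 ± 2479 in suspensor and 4937 ± 515 in embryo proper samples (n = 3 each), many times its whole seed signal. The call was lost without leaf replicate 2 (adjusted p = 0.082). WRI1B, a regulator of oil synthesis, read 383 and 358 against 110 and 84.3 and was not called (adjusted p = 0.24). These were the 2 markers of embryo and endosperm tested, with summed signals of 633 to 637 in seed and 88.8 to 144 in leaf.

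Of 19 seed maturation and late embryogenesis genes 3 were called higher in seed and 0 in leaf, with a median log2 difference of 0.16. The 3, PM9, PM16 and PM29, were dim: PM9 read 247 and 252 in seed against 54.3 and 87.7 in leaf, PM16 read 272 and 323 against 9.9 and 122, and PM29 read 99.5 and 123 against 10.8 and 6.3. Each lost its call in some fits that left out a ground array, PM9 and PM29 without any of the 4 and PM16 without either seed array or leaf replicate 1 (adjusted p up to 0.44). PM9 nevertheless had the widest lead of the named genes, with 38795 ± 2659 (n = 3) in the suspensor, 124-fold above the embryo proper. Storage proteins and their companions gave 0 seed-high calls among 7 tested genes and 1 leaf-high call, KTI-2, a Kunitz trypsin inhibitor gene. The glycinin gene GY2 had a log2 difference of -0.03. KTI-2 read 609 and 1000 in seed against 9489 and 4391 in leaf (8.12-fold), and lost its call without whole seed replicate 1 or leaf replicate 1 (adjusted p up to 0.11).

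On the leaf side, photosynthesis and chlorophyll genes gave 9 leaf-high calls and 0 seed-high calls among 20 tested, with a median log2 difference of -1.42. CHLH, a subunit of the magnesium chelatase of chlorophyll synthesis, read 8493 and 7577 in leaf against 466 and 260 in seed (22.0-fold, adjusted p = 9.5e-05). ATPC, which encodes the ATP synthase gamma subunit of chloroplasts, read 4943 and 5295 against 337 and 186 (19.2-fold, adjusted p = 6.8e-05). RCA14, a rubisco activase, read 34616 and 27066 against 4437 and 3751 (7.48-fold, adjusted p = 8.8e-05). Each of the 3 was above background in seed as well. The early light-induced protein gene ELIP read 29020 and 24578 in leaf against 1079 and 1247 in seed, although in the captured inner integument it stood at 21655. The leaf-high count ranged from 6 to 11 over the alternatives, and no alternative gave a seed-high call in this list.

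All 6 tested leaf markers were above background on both seed arrays, with summed signals of 48925 to 55405 in seed and 102768 to 113790 in leaf. Of the 4 rubisco activase genes RCA11, RCA14 and RCAALPHA were called higher in leaf, RCA11 losing the call without whole seed replicate 2 or leaf replicate 2 (adjusted p up to 0.13). The probe sets of RCA14 and RCAALPHA come from 1 transcript cluster, so these 2 genes may share signal. The fourth, RCABETA, read 1416 and 2137 in seed against 2278 and 2192 in leaf and was not called (log2 -0.36, adjusted p = 0.88). CAB3, a chlorophyll-binding protein, and PSAD, a photosystem I subunit, had log2 differences of -0.38 and 0.00 on their brightest probe sets and were not called. Another PSAD probe set was called at -2.18, and 2 of the 4 other CAB3 probe sets were called at -2.15 and -3.52, so for these genes the result depends on the probe set read. Most of the seed sum came from these 2 genes, with 25838 and 21667 for CAB3 and 20723 and 19404 for PSAD. In captured tissue the same 6 genes summed to 84274 to 140718 in the embryo proper and to 40776 to 70208 in the endosperm. The endosperm sum was nearly all PSAD, at 69342, 46902 and 39022. Only 2 of the 6 genes were above background on every endosperm array.

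The vegetative storage protein gene VSPA was among the brightest leaf-high genes. It read 39716 and 35192 in leaf against 1945 and 1333 in seed (23-fold, adjusted p = 0.00073). Of 6 other VSPA probe sets 5 were called in the same direction, at log2 differences of -5.29 to -7.86, and the dimmest gave 0.61 without being called. The lipoxygenase genes LOXB1 and VLXC read 29250 and 30245, and 17269 and 17189, in leaf against 4060 and 4681, and 2521 and 2286, in seed. Both calls were lost when any of the 4 ground arrays was left out, the lone array being assumed to vary like the other groups. Over the 10 alternatives the log2 difference ranged from -2.87 to -2.66 for LOXB1 and from -2.91 to -2.76 for VLXC.

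AG1 had the widest difference of the named leaf-high genes: 14142 and 5324 in leaf against 8.5 and 17.2 in seed, at least 76.6-fold (log2 -8.25 ± 0.82, adjusted p = 6.3e-07). FWL5 read 4951 and 15569 in leaf against 88.8 and 135 in seed (70.0-fold, adjusted p = 7.8e-05). Its probe set carries the transcript cluster number of a VSPA probe set, so its name is uncertain. INR2, an inducible nitrate reductase, read 2105 and 4910 in leaf against 25.3 and 20.3 in seed, at least 28.5-fold. ZEP, the zeaxanthin epoxidase of carotenoid and abscisic acid synthesis, read 12680 and 12931 against 210 and 302 (47.8-fold, adjusted p = 0.0001).

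Cytochrome P450 genes gave 8 leaf-high calls and 1 seed-high call among 18 (median log2 -1.76). CYP83E8 read 5454 and 6569 in leaf against 35.9 and 65.6 in seed, at least 52.9-fold, and CYP71A10 read 1849 and 1846 against 88.2 and 49.1, at least 16.4-fold. The seed-high member was CYP90A15 (log2 2.32), richest in the inner integument. The leaf-high P450 count ranged from 3 to 12 over the alternatives. Nitrogen and amino acid metabolism gave 7 leaf-high and 2 seed-high calls among 29 (median -0.15). GS-2, the plastid glutamine synthetase, read 33375 and 30623 in leaf against 6894 and 4354 in seed (5.82-fold, adjusted p = 0.0002), the opposite direction to the cytosolic GS1-GAMMA. Of 7 sieve element occlusion genes 2 were higher in leaf, SEOA and SEOS, and 0 in seed. SEOA lost the call without any 1 of the 4 ground arrays, and its log2 difference ranged from -2.32 to -2.19 over the 10 alternatives.

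**Figure D3:**
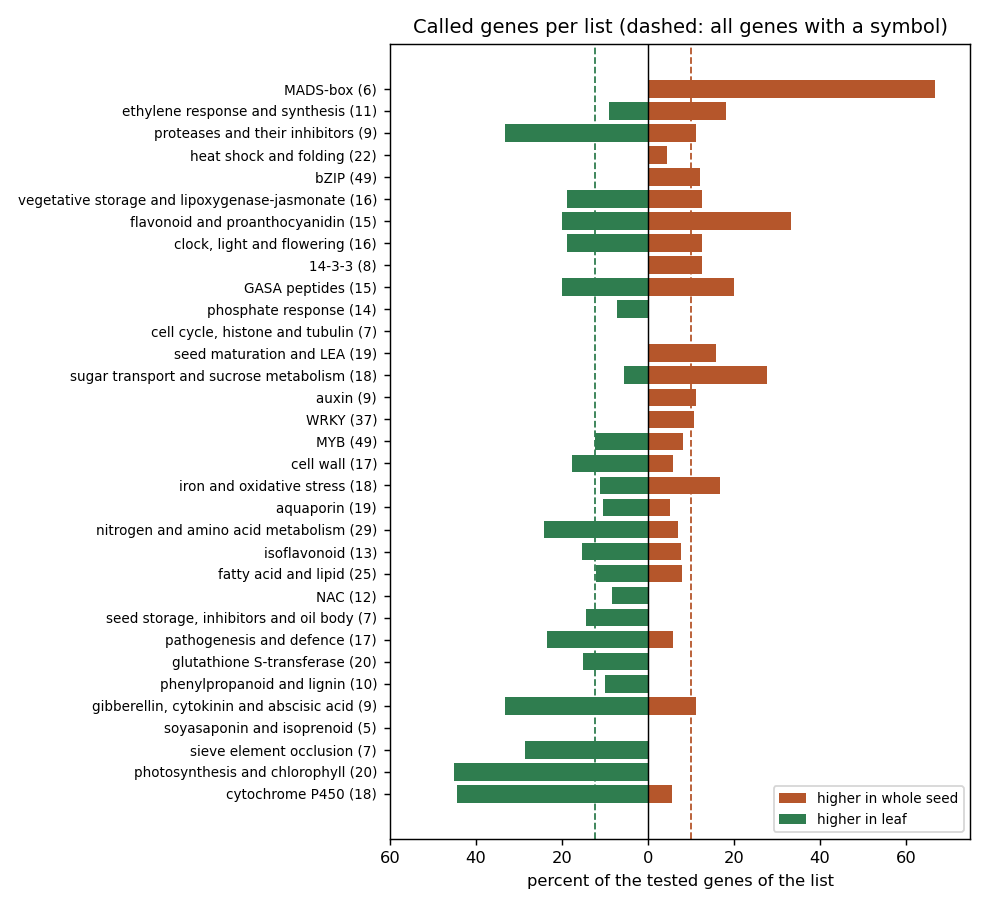
Percent of the tested genes of each list that were called higher in whole seed (right) or higher in leaf (left), with the number of tested genes in brackets and lists ordered by median log2 difference; dashed lines mark the 9.99% and 12.2% of all genes with a symbol. MADS-box genes reach 66.7% toward seed, and photosynthesis and P450 genes 45% and 44.4% toward leaf.

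The captured arrays enter no mean of the seed and leaf contrast, though they share its estimate of the spread and its filter, and they give the levels of the seed-high transcripts by compartment. A seed coat region was the richest compartment for 862 of the 1322 seed-high probe sets (65.2%), compared with 52.7% of the 18370 probe sets that were above background in whole seed and not called. The inner integument was richest for 293 (22.2% against 16.7%) and the outer integument for 237 (17.9% against 8.27%). The endosperm was richest for 206 (15.6% against 21.0%), and the embryo proper for 93 (7.03% against 13.9%). Suspensor (12.2% against 12.5%), hilum (9.38% against 10.5%), endothelium (7.87% against 8.03%) and epidermis (7.87% against 9.09%) differed by less than 2 percentage points from those other probe sets. Among the 797 seed-high probe sets of at least 4-fold the coat share was 72.0%.

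Being richest mostly meant a narrow margin. For 904 seed-high probe sets (68.4%) the richest compartment was within 2-fold of the second, and for the others in seed this held for 88.1%. In all, 595 (45%) were above background on every array of all 8 compartments. At the other end 20 were so in no compartment, and 7 were below background on all 19 captured arrays. The most frequent pair of richest and second compartment was inner integument and endothelium, with 131 probe sets (9.91%), followed by endosperm and suspensor with 79.

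A clear lead, that is a level called higher than in each of the other 7 compartments, by the same thresholds, was found for 207 seed-high probe sets (15.7%). The same rule gave 8.19% of the leaf-high probe sets and 4.39% of the other probe sets in seed. The call and the lead use 1 estimate of the spread per probe set, so called probe sets pass the lead rule more readily, and these shares are a description only. The endosperm held 69 of them, more than any other compartment, then the suspensor 42, the inner integument 29 and the outer integument 28. Hilum, endothelium, embryo proper and epidermis held 13, 12, 7 and 7. The captured arrays differed in quality: background was 111.7 to 420.1 against 86.3 to 97.7 for the ground arrays, and the spread of log2 signals within a group was 0.504 to 0.985 against 0.442 and 0.448. Without suspensor replicate 1 and endosperm replicate 1, the 2 arrays of highest background, 317 probe sets had a clear lead and the coat share was 61.5%. The coat share of the other probe sets in seed under that setting is not given here.

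**Figure D4:**
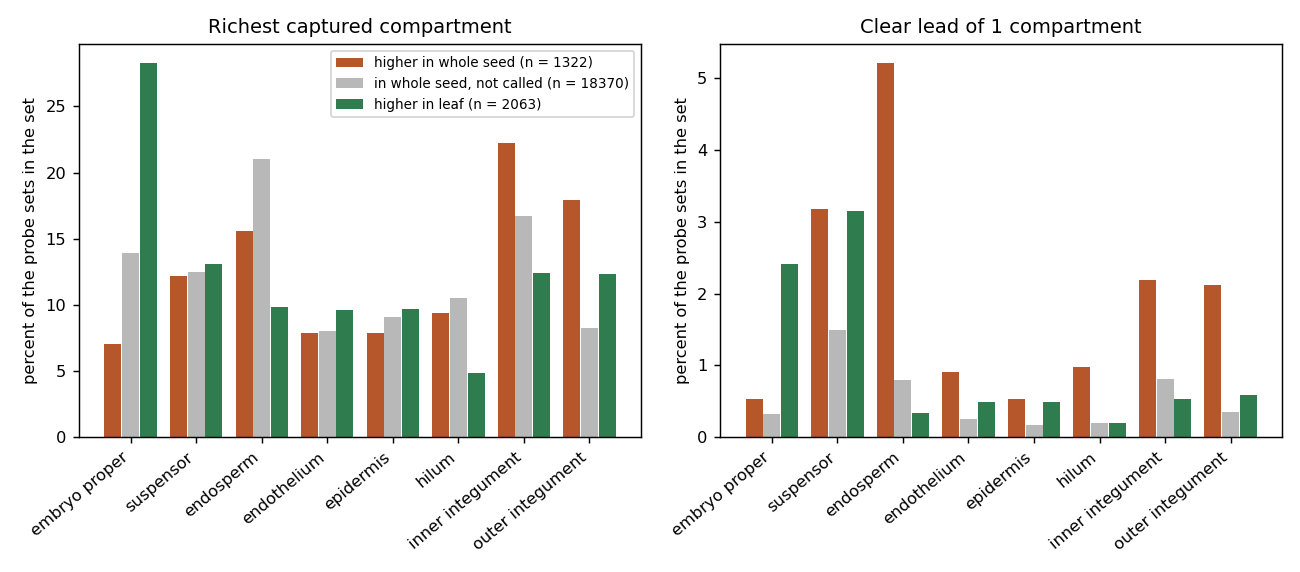
Left, percent of each set of probe sets whose richest captured compartment is the one named; right, percent with a clear lead of that compartment. The seed-high set exceeds the other probe sets in seed in both integuments on the left (22.2% against 16.7%, and 17.9% against 8.27%) and has its highest bar on the right in the endosperm (5.22%).

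None of the 69 endosperm-led probe sets carried an informative gene symbol, and 13 had exactly 1 gene in the annotation. The widest endosperm lead belonged to the gene LOC100811920, chosen here after its values were seen. It read 1418 and 1336 in whole seed and 3.9 and 8.4 in leaf, at least 13.2-fold, and stood at 30314 in the endosperm, 115-fold above the embryo proper. Of the 289 seed-high probe sets below background in leaf, 75 (26%) were richest in the endosperm, against 21.0% of the other probe sets in seed. A clear lead of the endosperm was found for 46 (15.9%), against 0.8%. A coat region was richest for 182 of the 289 (63.0%), against 52.7%.

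Seed-high probe sets with a gene symbol and a clear lead were found for 6 compartments. In the suspensor they belonged to BZIP68, HSP23.9, L1, PM9, SC-04 and WRKY54. WRKY54 lost its seed-high call without whole seed replicate 1, whole seed replicate 2 or leaf replicate 1 (adjusted p up to 0.22), and BZIP68 lost it without whole seed replicate 2 (adjusted p = 0.059). In the inner integument NOD33 led, with 38330 ± 5824 (n = 2) against 3939 in the endothelium, beside 3406 and 2744 in whole seed and 257 and 225 in leaf (12-fold, adjusted p = 0.00038). LUXC, of the clock gene family of LUX, and GLYI-6, a glyoxalase, shared that lead, but both lost the seed-high call in several fits that left out a ground array (adjusted p up to 0.30 and 0.25). The outer integument led for BZIP124, BZIP125 and RLK2, and the hilum for NMH7. In the epidermis SSH2 led, with 6199 ± 2116 (n = 2), 23.5-fold above the hilum, beside 1397 and 1324 in whole seed and 31.0 and 128 in leaf, and its seed-high call was lost without leaf replicate 1 (adjusted p = 0.05). The endothelium led for MET2.

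**Figure D5:**
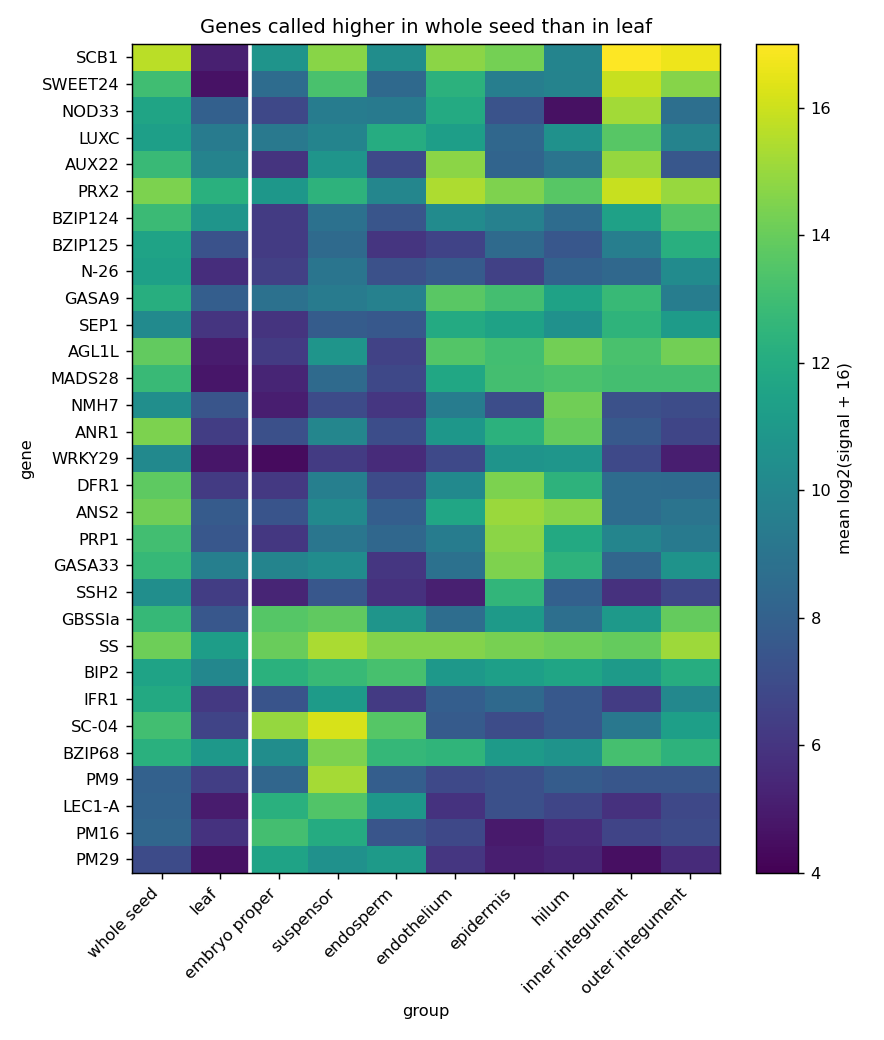
Mean log2(signal + 16) of 31 genes called higher in whole seed than in leaf, in whole seed, leaf and the 8 captured compartments; colours run from dark (low) to yellow (high). SCB1 and SWEET24 peak in the integuments, ANR1, DFR1 and ANS2 in hilum and epidermis, and PM9, LEC1-A and SC-04 in the suspensor.

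The leaf-high probe sets more often had the embryo proper as richest compartment. This held for 583 of 2063 (28.3%), against 13.9% of the other probe sets in seed. A coat region was richest for 48.8%, against 52.7%. The sets are unlike, because only the other probe sets had to be above background on both whole seed arrays. Where the richest compartment also had to be above background on each of its arrays, the embryo proper shares were 25.2% and 13.3%. On the other hand 597 (28.9%) of the leaf-high probe sets were above background throughout no compartment, against 6.73%. A further count, 301, were below it on all 19 captured arrays. AG1, VSPA and MYB127 illustrate the range: AG1 and MYB127 were above background in no compartment, while VSPA was so in 2.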

How the data were processed

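The authors deposited linear intensities, 1 value for each array and probe set, judged from the values; the submitters' processing notes name GCOS 1.3. The sources used here do not give the probe summary method. With 2% trimmed at each end, the mean of each array lay between 500.05 and 500.07, so no further scaling was applied. Scaling to a fixed mean makes levels relative to the array's total.

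Background was the 95th percentile of 23350 pathogen probe sets on each array. Of 37593 soybean probe sets, 25686 were tested, those exceeding background throughout 1 or more groups. One model of 10 groups was fitted to log2(signal + 16) of the 23 arrays (limma 3.58.1, R 4.3.3; lmFit, eBayes with trend, 13 residual degrees of freedom), two-sided, and p-values were adjusted over all that was tested (Benjamini-Hochberg). Calls needed an adjusted p under 0.05 and 2-fold. Folds are on the log2(signal + 16) scale and understate dim genes. Errors of log2 differences are standard errors. Precision is limited by the number of arrays. The script was tested on simulated data.

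The platform annotation, which is old, named 1 gene for 8677 probe sets and several for 370; 28546 are unnamed here. Named genes were called, with 1 gene, an informative symbol, the gene's brightest probe set, above background on both arrays of the higher side and no overlap: the 12 largest folds per direction, up to 3 per compartment with a clear lead and up to 3 per gene list, plus markers called or not. Other members of the lists are given by value where a list is described. Of the 100 named probe sets 22 may bind several transcripts. The members and lists were chosen with earlier results of these data known, and the symbol lists were edited after the annotation had been seen. Promoter sequences were not analysed here.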

Additional observations from a re-analysis of the deposited data

How the results depend on the processing

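No called named gene changed direction under the 10 alternatives tried for it. The direction of the other called probe sets was not compared between settings. The 3385 calls became 6778 with only the 4 ground arrays (2862 seed, 3916 leaf) and 7030 with array weights (3131 and 3899). Leaving out 1 ground array gave 1674 to 2064 calls, with 572 to 760 toward seed and 1101 to 1304 toward leaf, and the lone array was then assumed to vary like the other groups. A 4-fold minimum left 797 seed-high probe sets. The 207 clear leads became 375 with array weights, 317 without the 2 arrays of highest background and 135 at a 4-fold lead, and ranged from 157 to 265 when 1 captured array was left out. The coat share of 65.2% became 62.1% with array weights, 61.5% without those 2 arrays and 69.9% with equal medians. It ranged from 63.5% to 65.9% with 1 captured array left out. In the main fit the share of the other probe sets in seed was 52.7%. Their share under each alternative is not given here, so these values do not show how the excess changed. The replicate block gave 3572 calls with all arrays and 7418 (3242 and 4176) with only the 4 ground arrays; same-numbered deviations correlated at 0.138 over 2 pairs, so the samples may share only a number. The cause of these changes was not tested. The share of calls toward seed ranged from 31.7% to 44.5%. Of 42 seed-high and 53 leaf-high named genes, 24 and 32 were called under each of the 10 alternatives; the other 18 and 21 lost the call with a ground array left out. The planned search of promoters for motifs was not run.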

Other observations

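A group of genes was higher in leaf than in whole seed and yet had a clear lead of the suspensor within the seed. They numbered 65 of the 2063 leaf-high probe sets (3.15%), beside 3.18% of the seed-high probe sets and 1.49% of those in seed that were not called, and 10 genes with a symbol were among them. GSTU41, a glutathione transferase, read 631 and 814 in whole seed and 12214 and 6923 in leaf, and its mean in the captured suspensor was 23222. CHR5 read 6.4 and 3.5 in whole seed and 290 and 157 in leaf, against 4792 in the suspensor, 66.3-fold above the endosperm, and was not called as leaf-high without leaf replicate 1 (adjusted p = 0.051). CYP82A3 stood at 8.5 and 12.8 in whole seed, 145 and 205 in leaf and 5314 in the suspensor. INR2, IFS1 and UGT78K1 shared the pattern. In whole seed neither array read CHR5 or CYP82A3 above background, although 1 captured compartment was bright. The pattern was not particular to the suspensor. The embryo proper had a clear lead for 50 leaf-high probe sets (2.42%), beside 0.53% of the seed-high ones and 0.321% of those not called. Its genes with a symbol were GASA14, INFA and PHANa. VLXC and AMS1 were leaf-high with a clear lead of the outer integument, VLXC losing the leaf-high call without any 1 of the 4 ground arrays (adjusted p up to 0.13).

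For some genes the ground seed was brighter than every captured array. Both whole seed arrays exceeded all 19 captured arrays at 67 of the 1322 seed-high probe sets (5.07%) and at 3.12% of the other probe sets in seed. The seed-high set was chosen for a high whole seed signal, so its share is a description only. SALI5-4A read 25676 and 26221 in whole seed while its highest captured signal was 2750. MIPS4, an enzyme of inositol synthesis, read 8640 and 8588 against at most 2147, and N-26 and ANR1 were further cases.

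Wide differences were also found among probe sets without annotation. One of them read 29225 and 28894 in whole seed and 62.8 and 43.6 in leaf, at least 275-fold, with means from 41628 to 51912 in the 5 coat regions and 95.4 in the embryo proper. Another read 43.4 and 36.4 in seed and 21694 and 17786 in leaf, at least 173-fold. It shares its transcript cluster number with probe sets annotated RCA14 and RCAALPHA.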
